A study of Bos taurus with 24 samples.

Results

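The abundance of the transcripts of CDK1, CCNB1 and CCNB2, the catalytic and regulatory subunits of maturation promoting factor (MPF), was examined in 24 libraries of bovine oocytes. The genes were taken by symbol from a table of 11306 genes, where each had 1 entry, so 3 of 11306 genes are described here. All 3 were among the 9526 genes that exceeded 0.1 FPKM in at least 1 library and were tested. Oocytes came from Angus-based crossbred beef cows (Bos taurus) that were neither lactating nor pregnant, and were collected by ovum pick-up in May (spring) or July (summer). There were 6 libraries each of germinal vesicle (GV) oocytes in May, GV oocytes in July, metaphase II (MII) oocytes in May and MII oocytes in July. After removal of the cumulus cells, 4 oocytes of 1 animal were pooled for each library. The same cows were aspirated in both seasons and part of each cow's oocytes was matured, so the groups can share animals. Which cow gave which library is not stated, and the tests treated libraries as independent. MII oocytes had undergone in vitro maturation with FSH and serum, so the comparison of stages also compares fresh with cultured oocytes. Nuclear stage was read by DAPI staining in other oocytes of the study, and the methods describe no such reading for the sequenced pools.

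MPF consists of a B-type cyclin and the protein kinase CDK1, which is active only when bound to a cyclin. In the fully grown oocyte MPF is held inactive during prophase arrest. Its activation drives breakdown of the germinal vesicle and assembly of the first meiotic spindle, cyclin B is partly destroyed as homologous chromosomes separate, and MPF activity then returns and stays high during arrest at metaphase II. Oocytes are nearly silent in transcription over this period, and they draw on stored mRNAs whose poly(A) tails are lengthened or shortened. The libraries were made by capture of mRNA, so tail length may enter the measurement, which was not tested. Kinase activity and protein were not measured here.

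In the UMD3.1.1 coordinates of the table, CDK1 lies on chromosome 28 (16620268 to 16633923, forward strand), CCNB1 on chromosome 20 (10431452 to 10441127, reverse strand) and CCNB2 on chromosome 10 (51247755 to 51272734, reverse strand). FPKM divides by transcript length and the deposited values share 1 total per library, so each value is a share of the measured RNA. A lower share in an oocyte with more RNA, less RNA of the gene per oocyte and fewer cells of a type in the pool cannot be told apart. Relative sequencing depth, read from the spacing of the low values, was under 0.5 of that of GV May replicate 1 in 3 libraries: GV May replicate 6 (0.0565), GV July replicate 2 (0.393) and MII May replicate 6 (0.149). The other 21 ranged from 0.542 to 6.51. Of 14 listed oocyte markers 11 were in the table, with summed levels of 582 to 1865 FPKM per library. OOSP1, with ZAR1 and GDF9 at GV, made up much of these sums, whereas DDX4 stayed at or under 0.448 FPKM in every library and KIT averaged 0.454 to 0.820 FPKM per group. A further library, GV May replicate 3, was not shallow but stood apart by granulosa cell markers. Results are also given without these libraries where they change them.

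**Figure D1:**
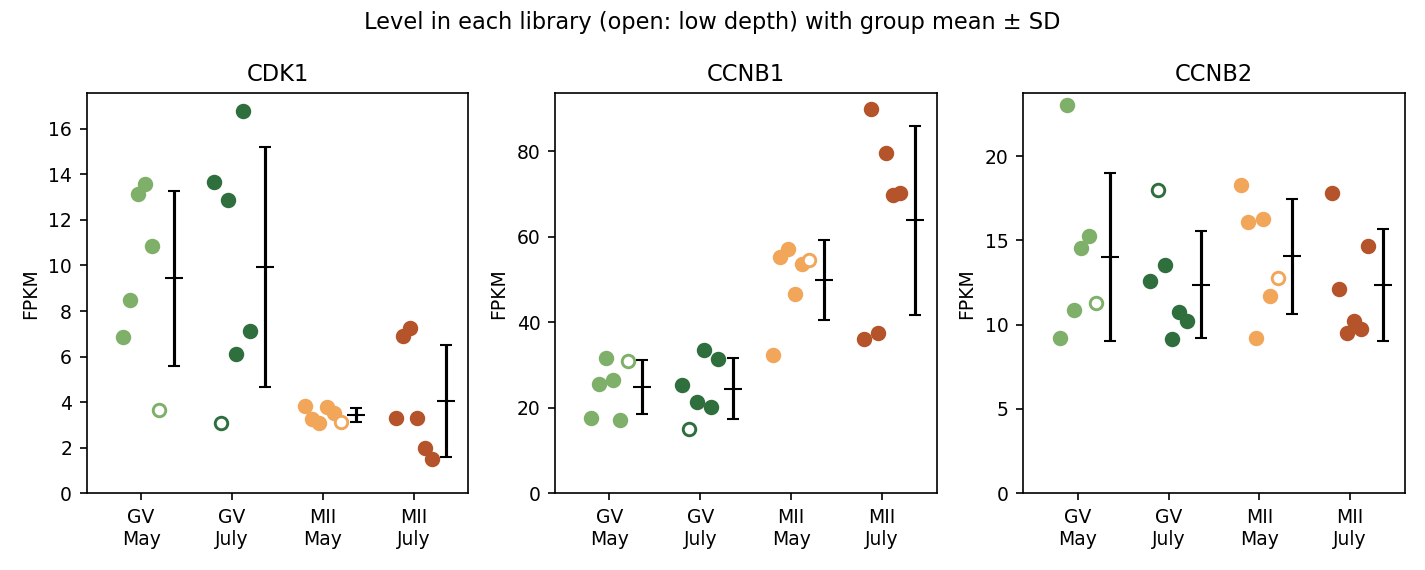
FPKM of CDK1, CCNB1 and CCNB2 (vertical axes, a linear scale from 0) in the 4 groups (horizontal axis); each point is 1 library (open for the 3 of low depth), and the short bar and whiskers beside them are the group mean and SD (n = 6). CDK1 sits at or under 7.25 FPKM in every MII library, CCNB1 is higher in every MII library than in any GV library of the same season, and the ranges of CCNB2 overlap in all groups.

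CDK1, the kinase, was downregulated from GV to MII oocytes, by the adjusted test in May and by the unadjusted rule alone in July. In GV oocytes of May its level was 6.86, 8.49, 13.2, 13.6, 10.9 and 3.63 FPKM in replicates 1 to 6, a mean of 9.43 ± 3.86 (SD, n = 6). In MII oocytes of May the 6 values were 3.07 to 3.82 FPKM with a median of 3.41, a mean of 3.44 ± 0.324 (SD, n = 6). Thus 5 of the 6 GV libraries lay above all MII libraries, and the exception was the shallow replicate 6. The mean was 2.75 times lower at MII. On the log2(FPKM + 1) scale, which understates changes of low genes, the difference was -1.14 (SE 0.27, 95% confidence interval -1.71 to -0.56), with a limma adjusted p of 0.00877 and a two-sided exact permutation p of 0.00649 (0.0260 adjusted over the 12 member comparisons of stage and season). CDK1 met the call used here (fold change over 2 with an unadjusted p under 0.05), as 8.25% of all tested genes did in the lower direction and 11.8% in either.

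In July the same direction was seen with wider spread. CDK1 measured 13.7, 3.08, 12.9, 6.13, 16.8 and 7.12 FPKM in GV replicates 1 to 6, a mean of 9.95 ± 5.27 (SD, n = 6). The MII replicates measured 3.30, 6.90, 7.25, 3.29, 1.96 and 1.52 FPKM, a mean of 4.04 ± 2.46 (SD, n = 6). MII replicates 2 and 3 reached the level of the middle GV libraries, and GV replicate 2, which was shallow, lay among the lower MII libraries. The difference was -1.10 (SE 0.40, 95% confidence interval -1.97 to -0.22), with an unadjusted limma p of 0.0184, an adjusted p of 0.0579 and an exact permutation p of 0.0498 (adjusted 0.149). CDK1 was therefore called by the unadjusted rule, as 9.26% of genes were in the lower direction and 11.5% in either, and was not called at an adjusted p under 0.05, as 23.1% of genes were in the lower direction and 30.7% in either. Without GV July replicate 2 the difference was -1.35 (SE 0.36) with a limma adjusted p of 0.0126. Without any 1 of GV replicates 1, 3 and 5 or MII replicates 5 and 6 it was between -0.99 and -0.92, short of a fold of 2. Quantile normalization gave -0.77 (unadjusted limma p 0.133) and median-of-ratios scaling -1.09 (unadjusted limma p 0.0591), so the call in July depended on the scaling and on single libraries.

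CCNB1, which encodes cyclin B1, moved in the opposite direction, and its GV and MII libraries did not overlap in either season. In May it ranged from 17.1 to 31.7 FPKM in GV oocytes (median 26.0, mean 24.9 ± 6.38, SD, n = 6) and from 32.3 to 57.2 FPKM in MII oocytes (median 54.0, mean 49.9 ± 9.36, SD, n = 6). The lowest MII library was replicate 1, and the next was at 46.6 FPKM. In July the GV libraries spanned 15.02 to 33.6 FPKM (median 23.3, mean 24.5 ± 7.08, SD, n = 6). The MII libraries of July measured 36.1, 89.8, 37.5, 79.6, 69.7 and 70.1 FPKM in replicates 1 to 6, a mean of 63.8 ± 22.2 (SD, n = 6). Replicates 1 and 3 stood just above the highest GV library and the other 4 at 69.7 to 89.8 FPKM. Complete separation in the higher direction was seen in 4.65% of tested genes in May and 3.07% in July; in the lower direction it was 8.98% and 14.7%, and in either 13.6% and 17.7%.

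The means of CCNB1 were 2.01 times higher at MII in May and 2.61 times higher in July. On the log2(FPKM + 1) scale the difference was 0.99 in May (SE 0.23, 95% confidence interval 0.50 to 1.48, limma adjusted p 0.00814) and 1.31 in July (SE 0.28, 0.71 to 1.92, limma adjusted p 0.00366). The exact permutation p was 0.00216 in each season (adjusted 0.0130), the smallest that 6 against 6 libraries can give. CCNB1 was called higher in July, as 2.2% of genes were. In May it missed the call, which 3.57% of genes passed in that direction, only because the fold on this scale was just under 2. It passed an adjusted p under 0.05, as 9.45% of genes did higher, 14.7% lower and 24.2% in either direction in May, and 7.67% higher in July.

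CCNB2, which encodes cyclin B2, showed no detectable change. Its level ranged from 9.18 to 23.0 FPKM in GV oocytes of May (mean 14.0 ± 4.97, SD, n = 6) and from 9.14 to 18.0 FPKM in those of July (mean 12.4 ± 3.18, SD, n = 6). At MII it ranged from 9.18 to 18.3 FPKM in May (mean 14.0 ± 3.40, SD, n = 6) and from 9.49 to 17.8 FPKM in July (mean 12.3 ± 3.32, SD, n = 6). The 4 ranges overlapped almost fully. The difference from GV to MII was 0.03 on the log2(FPKM + 1) scale in May (95% confidence interval -0.51 to 0.56, limma adjusted p 0.941) and -0.01 in July (-0.45 to 0.44, limma adjusted p 0.987). These intervals leave room for changes of up to about 0.5 in either direction.

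**Figure D2:**
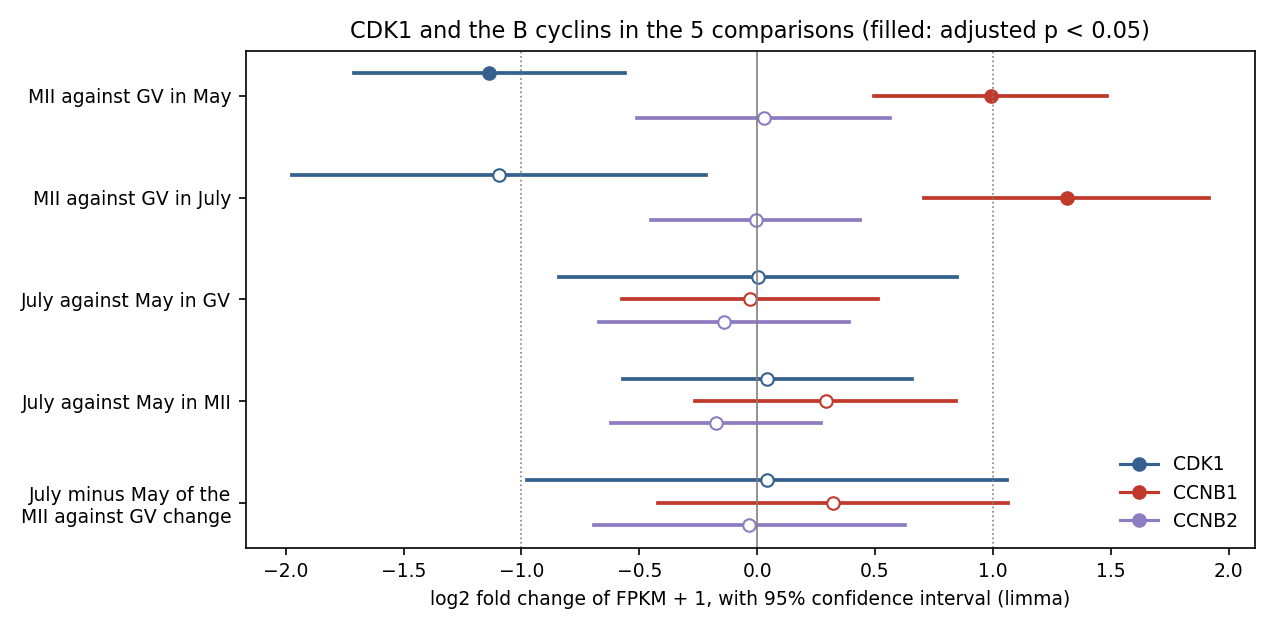
Differences in log2(FPKM + 1) with 95% confidence intervals (limma) for CDK1, CCNB1 and CCNB2 in the comparisons of stage, of season and of the change between seasons; the solid line marks no difference, the dotted lines a fold change of 2, and filled points an adjusted p under 0.05. CDK1 lies below 0 (-1.14 and -1.10) and CCNB1 above 0 (0.99 and 1.31) between stages, whereas every interval between seasons includes 0.

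No member differed between summer and spring. In GV oocytes the July minus May difference on the log2(FPKM + 1) scale was 0.00 for CDK1 (95% confidence interval -0.84 to 0.85), -0.03 for CCNB1 (-0.57 to 0.51) and -0.14 for CCNB2 (-0.67 to 0.39). In MII oocytes it was 0.04 for CDK1 (-0.57 to 0.66), 0.29 for CCNB1 (-0.26 to 0.85) and -0.18 for CCNB2 (-0.62 to 0.27). The exact permutation p ranged from 0.539 to 0.991 in GV and from 0.286 to 0.820 in MII oocytes. Few genes of any kind were called between seasons here, 0.0315% of tested genes in GV and 0.042% in MII oocytes. At a limma adjusted p under 0.05 it was 0% in each, and 0.178% in each had groups that did not overlap. The calls numbered 3 and 4, and 37 and 23 with a pseudocount of 0.1. With another test at nominally the same p and fold limits, the study reported more genes at both stages. The fold here was that of FPKM + 1, and the methods of the study do not state the scale of its fold. The interval of CDK1 in GV oocytes reaches nearly 0.85 in both directions, so seasonal differences of up to nearly that size are not excluded.

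The change from GV to MII was also compared between seasons. The July minus May difference in that change was 0.04 for CDK1 (95% confidence interval -0.98 to 1.06), 0.32 for CCNB1 (-0.42 to 1.06) and -0.03 for CCNB2 (-0.69 to 0.63), with exact permutation p of 0.934, 0.353 and 0.910. Of all tested genes 0.21% were called for this difference and 0% at a limma adjusted p under 0.05. The GV and MII changes of the members were thus not shown to differ between spring and summer.

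CCNB1 had the highest mean FPKM, a level per length, of the 3 transcripts in every group, and its lead over CDK1 widened at MII. It exceeded CDK1 in all 24 libraries, and exceeded CCNB2 in 23 of 24, GV July replicate 2 being the exception. CCNB2 exceeded CDK1 in 5 of 6 GV libraries of May, 4 of 6 of July and all 12 MII libraries. By exact sign flips within libraries, a test added after the values were seen, the order of CCNB2 and CDK1 was not distinguished in GV oocytes (p 0.0938 in May and 0.4375 in July), while CCNB1 over CDK1 reached p 0.03125 in each group (adjusted over 12 tests 0.0417), the smallest that 6 libraries can give. CCNB1 and CCNB2 were not distinguished in GV oocytes of July (p 0.0625, adjusted 0.075). The median rank among the 11306 genes, from the most abundant, went from 501.5 in GV to 215 in MII oocytes of May for CCNB1, and from 513.5 to 172 in July. For CDK1 it went from 953.5 to 1550.5 in May and from 967.5 to 1744 in July.

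**Figure D3:**
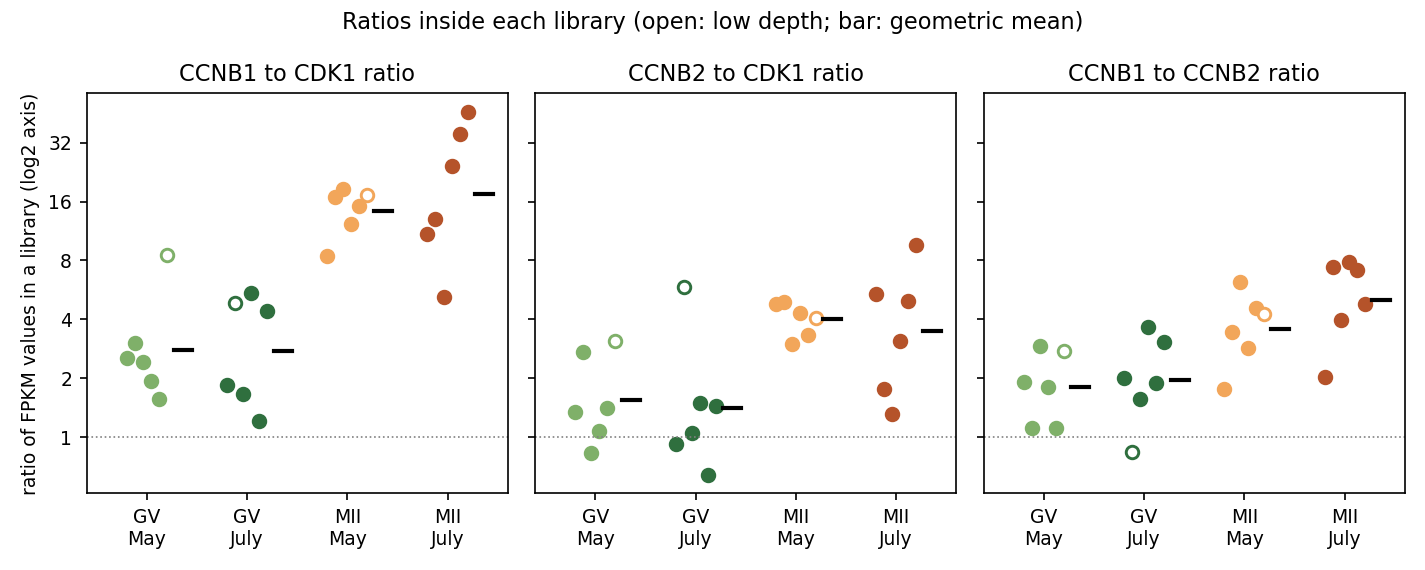
Ratios of FPKM between members within each library (vertical axes, log scale) in the 4 groups; each point is 1 library (open for low depth), the bar is the geometric mean and the dotted line a ratio of 1. The CCNB1 to CDK1 ratio has geometric means of 2.80 and 2.75 in GV oocytes and of 14.3 and 17.6 in MII oocytes.

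Ratios within a library do not depend on a scaling factor applied to that library. The CCNB1 to CDK1 ratio had a median of 2.48 in GV oocytes of May (1.57 to 8.54) and of 16.0 in MII oocytes (8.45 to 18.6), a geometric mean 5.11 times higher at MII (exact permutation p 0.00433, adjusted over 12 ratio comparisons 0.0173). In July it had a median of 3.13 in GV (1.20 to 5.48) and 18.6 in MII oocytes (5.18 to 46.2), 6.38 times higher (exact permutation p 0.00433, adjusted 0.0173). In each season 1 GV library only just overlapped the lowest MII library. The CCNB2 to CDK1 ratio was 2.57 times higher at MII in May (exact permutation p 0.00433, adjusted 0.0173) and 2.49 times higher in July, where it missed the threshold (exact permutation p 0.0671, adjusted 0.134). The CCNB1 to CCNB2 ratio was 1.99 times higher at MII in May (exact permutation p 0.0260, adjusted 0.0623) and 2.56 times higher in July (exact permutation p 0.0108, adjusted 0.0325). The July difference was no longer past the threshold without the shallow libraries (adjusted 0.0571) and in 9 of 12 refits that omitted 1 library, with adjusted p of up to 0.0623. In May it passed without GV replicate 3 (adjusted 0.0416) or MII replicate 1 (adjusted 0.0312). CCNB1 made up 63.9% ± 9.55 of the summed FPKM of both cyclins in GV oocytes of May, 65.5% ± 11.8 in those of July, 77.5% ± 7.82 at MII in May and 82.3% ± 8.31 at MII in July (SD, n = 6 each). No ratio differed between seasons at either stage, with adjusted exact permutation p of 0.419 or more.

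The spread among the libraries of a group was uneven. With 1 library per animal, spread among animals cannot be told apart from that of depth and library preparation. The coefficient of variation of CDK1 was 40.9% and 53.0% in GV oocytes of May and July, 9.43% in MII oocytes of May and 60.9% in those of July. Without the shallow libraries CDK1 was 10.6 ± 2.91 FPKM in GV oocytes of May and 11.3 ± 4.54 FPKM in those of July (SD, n = 5 each). For CCNB1 it ran from 18.8% (MII May) to 34.7% (MII July), and for CCNB2 from 24.2% (MII May) to 35.4% (GV May). Of 12 correlations between pairs of members within a group, none passed an adjusted p under 0.05. The strongest by its p was that of CDK1 with CCNB1 in MII oocytes of May (r = -0.78, permutation p 0.00417, adjusted 0.05; rho = -0.94, permutation p 0.0167, adjusted 0.2), over CDK1 values that spanned less than 1 FPKM. It was -0.85 without the 2 libraries farthest from the median of CDK1.

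Markers of cumulus and granulosa cells were set beside these values because such cells surround the oocyte. Over the 18 listed markers, all in the table, the summed FPKM ranged from 38.1 to 588 in GV oocytes of May, 34.0 to 124 in GV oocytes of July, 35.0 to 162 in MII oocytes of May and 27.1 to 85.3 in MII oocytes of July. STAR and KRT8 were high in every group, with group means of 20.6 to 29.1 and 18.9 to 40.4 FPKM. By group, 7 to 12 of the 18 markers stayed under 1 FPKM in every library. The highest sum of each of the first 3 groups belonged to its shallow library, and in both GV groups that library also had the lowest CDK1. GV July replicate 2 also had the highest oocyte marker sum of its group (1865 against 754 to 990 FPKM). The oocyte marker sum of GV May replicate 6 (797 FPKM) lay within the range of its group, and that of MII May replicate 6 (997 FPKM) was the lowest. KRT18 and KRT8 made up most of the cumulus and granulosa sum in GV May replicate 6, at 392.4 and 146 FPKM. GV May replicate 3, the next highest of its group with a sum of 199 FPKM, instead held VIM at 75.7, INHA at 37.2, FST at 20.3, AMH at 13.4 and CYP11A1 at 11.97 FPKM, where no other library of its group exceeded 2.35 FPKM for any of these 5 genes. FSHR, CYP19A1 and AREG were near the floor of 0.01 FPKM in all 24 libraries, at most 0.0687 FPKM. CDK1 in GV May replicate 3 was 13.2 FPKM, among the highest of its group. Without that library the difference of May was -1.03 for CDK1 (limma adjusted p 0.0167) and 1.07 for CCNB1 (limma adjusted p 0.00739), which then passed the fold. The part of these markers and of depth in the levels of the members was not tested. Without the 3 shallow libraries the CDK1 difference was -1.33 in May (SE 0.19, limma adjusted p 0.000546) and -1.35 in July, larger than with them, and that of CCNB1 was 1.03 and 1.19. Of 8 markers of mitotic cells 5 were in the table, and their sums ranged from 50.2 to 150 FPKM in GV and from 134 to 449 FPKM in MII libraries. PCNA made up most of these sums, with means of 70.9 (GV May), 101 (GV July), 161 (MII May) and 208 FPKM (MII July). The means of MCM3 and MCM5 lay the other way, at 2.77 and 2.24 FPKM in GV against 1.43 and 1.796 FPKM in MII oocytes of May, and at 4.16 and 2.30 against 1.14 and 1.15 FPKM in July.

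The genes whose pattern was most like each member were taken from the 3665 tested genes with a mean of at least 1 FPKM. Over the 24 libraries, which share stage and depth differences, the 5 highest Spearman coefficients with CDK1 were those of GOSR1 (0.909), TEFM (0.907), ORC4 (0.904), GTF2H2 (0.902) and EXOSC8 (0.900). When the group means were removed from log2(FPKM + 1), the 5 highest Pearson coefficients with CDK1 were those of GTF2H2 (0.892), TAF9 (0.890), TEFM (0.886), EXOSC8 (0.849) and LAMTOR3 (0.844). Thus GTF2H2 (a subunit of the transcription factor TFIIH), TEFM (a mitochondrial transcription elongation factor) and EXOSC8 (a subunit of the RNA exosome) followed CDK1 by both measures. For CCNB1 the genes were NUP155 (0.931), PPM1A (0.922), CDC26 (0.908), ERP44 (0.905) and NGLY1 (0.900) by Spearman coefficient. With group means removed they were WDR19 (0.793), PPM1A (0.770), NUP155 (0.738), TTF1 (0.711) and RBM45 (0.709), so NUP155, a nucleoporin, and PPM1A, a protein phosphatase, were in both sets. For CCNB2 they were AURKB (0.812), MOSPD3 (0.776), TOR2A (0.743), GATSL3 (0.730) and ACOT2 (0.717) by Spearman coefficient. With group means removed they were SDCCAG3 (0.799), DCTD (0.790), GATSL3 (0.787), CHMP3 (0.787) and AURKB (0.786), and AURKB, the kinase of the chromosomal passenger complex, was in both sets with GATSL3. These coefficients are descriptive and carry no test.

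Regulators of MPF were then examined in 8 lists of 117 genes, of which 92 were in the table and 85 were tested. From GV to MII 8 were called higher and 2 lower in May, and 8 higher and 3 lower in July. The share called in either direction was near that of all genes, 11.8% against 11.8% in May and 12.9% against 11.5% in July. By direction, 9.41% of the regulators were called higher against 3.57% of all genes in May and 2.2% in July, and 2.35% and 3.53% were called lower against 8.25% and 9.26%. Of the 11 activators of CDK1, 3 were called higher and 1 lower in each season, with a median difference of 0.50 in May and 0.40 in July where the median of all tested genes was -0.03 and -0.02. CKS2, a small protein that binds CDK1, rose from 228 to 543 FPKM in May (1.32, SE 0.23 on the log2 scale, limma adjusted p 0.00167) and by 1.21 in July. BORA, the cofactor through which Aurora A activates PLK1, rose from 3.00 to 10.01 FPKM in May (1.43, limma adjusted p 0.0125) and by 1.24 in July.

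AURKA, which encodes Aurora A, was 96.7 FPKM in GV and 204 FPKM in MII oocytes of May (1.14, limma adjusted p 0.00490) and was called in May, whereas in July the difference was 0.54 (limma adjusted p 0.0957). CKS1B was called in July (1.35, limma adjusted p 0.0953) and measured 0.50 in May. PLK1, the kinase that activates CDC25C, fell from 5.84 to 2.04 FPKM in May (-1.08, limma adjusted p 0.0281) and by 1.38 in July (limma adjusted p 0.0380). The phosphatases that remove the inhibitory phosphates of CDK1 were not called: CDC25B differed by -0.20 in May and -0.66 in July, and CDC25C by 0.01 and -0.29.

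**Figure D4:**
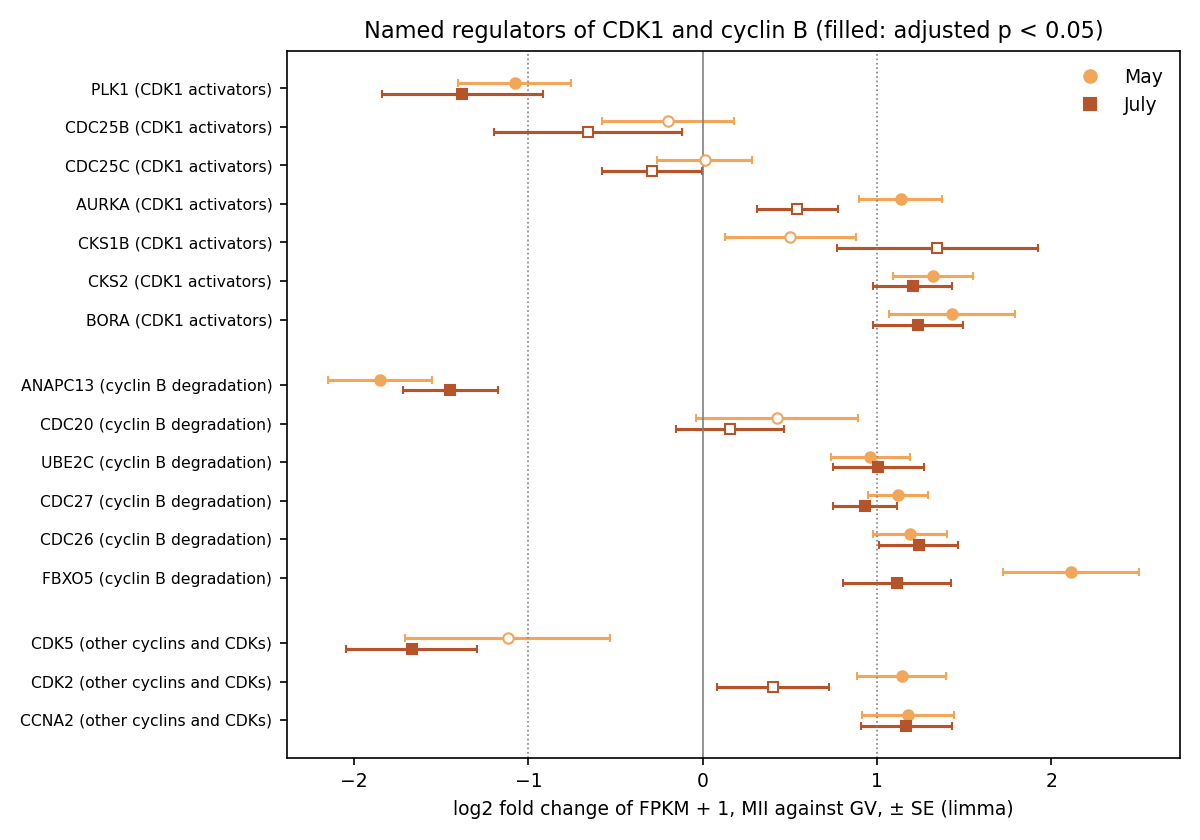
Differences from GV to MII in log2(FPKM + 1), with whiskers of 1 SE (limma), for the named regulators of MPF in May (circles) and July (squares), grouped by role; the solid line marks no difference, the dotted lines a fold change of 2, and filled points an adjusted p under 0.05. FBXO5, CKS2, BORA, CDC26 and CCNA2 lie above 0 in both seasons, and PLK1 and ANAPC13 lie below.

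Cyclin B is destroyed through the anaphase promoting complex (APC/C), a ubiquitin ligase. Of its 23 tested subunits and regulators, 3 were called higher and 1 lower in May, and 4 higher and 1 lower in July, where the shares of all tested genes were 3.57% higher and 8.25% lower in May and 2.2% and 9.26% in July. FBXO5, which encodes the APC/C inhibitor EMI1, rose from 8.64 to 42.2 FPKM in May (2.12, SE 0.39, limma adjusted p 0.00239) and by 1.12 in July (limma adjusted p 0.0167). The APC/C subunit gene CDC26 rose by 1.19 in May and 1.24 in July, and CDC27 by 1.12 in May, while CDC27 in July, at 0.93, passed an adjusted p under 0.05 (limma, 0.00210) without reaching the fold. ANAPC13, another subunit gene, fell from 125 to 31.9 FPKM in May (-1.85, limma adjusted p 0.00106) and by 1.45 in July. UBE2C, the APC/C ubiquitin-conjugating enzyme, was called in July (1.01, limma adjusted p 0.0120) and was 0.96 in May. MAD2L1, the spindle checkpoint protein, was the remaining call in July (1.10, limma adjusted p 0.0939) and is named after its value was seen. CDC20, the APC/C activator, was not called and differed by 0.43 and 0.16.

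Among the 16 tested genes of other cyclins and CDKs, 2 were called higher in May, and 1 higher and 1 lower in July, counts near the 11.8% and 11.5% of all genes called in either direction. CCNA2, which encodes cyclin A2, rose from 18.8 to 41.2 FPKM in May (1.18, limma adjusted p 0.00727) and by 1.17 in July, a change in the direction of CCNB1. CDK2, a close relative of CDK1, rose from 1.84 to 5.05 FPKM in May (1.14, limma adjusted p 0.00708), opposite in direction to CDK1, and measured 0.40 in July. CDK5 fell by 1.67 in July (limma adjusted p 0.00510) and measured -1.12 in May. No gene reached the call among the 7 tested genes of the PP2A-B55 axis, which reverses CDK1 phosphorylation, or the 6 of the MOS-MAPK cytostatic factor. The same held for the 7 of cAMP signaling in prophase arrest, the 14 of cytoplasmic polyadenylation and the 1 tested inhibitory kinase, WEE1. At a limma adjusted p under 0.05, with smaller folds, MASTL (0.27) and PAPD4 (0.43) of these lists were higher at MII in May, and MAP2K2 (-0.62), CPSF1 (-0.31), CPSF3 (-0.48) and SYMPK (-0.20) were lower in July, each at a mean of about 1 FPKM or less and named after their values were seen. WEE2, PKMYT1, FBXO43, MOS, CPEB1 and CCNB3 had no entry under these symbols among the 11306 genes, so they were not analysed here. Between seasons 0 of the 85 regulators were called at either stage. The change from GV to MII was not shown to differ between seasons for any of the 85 (limma, 0 called and 0 at an unadjusted p under 0.05), including AURKA, where the difference in change was -0.59 (SE 0.33).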

How the data were processed

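RNA was measured in 24 libraries, made by mRNA capture (Smart-seq2 v4) and Nextera XT. After trimming, the authors aligned reads to the bovine genome with STAR 2.5.3a (UMD3.1.1 in the methods, UMD3.1 in the processing notes) and deposited FPKM values. Each library sums to 86768.1 to 86768.2 and no value is under 0.01. That the values were scaled to 1 total and raised by 0.01 was inferred from them. The deposited values hold no total counts. Of 16486 held-out low values, 99.6% lay within 0.1 of a whole multiple of 1 read (20% by chance), which gave relative depth. The paper reports read numbers for its samples, and relative depth was not compared with them. No 2 libraries were identical.

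From these values log2(FPKM + 1) was tested with limma 3.58.1 (R 4.3.3, trend on mean expression), with the 2 compared groups in each fit, for the 9526 genes over 0.1 FPKM in at least 1 library. Calls needed a fold change over 2, on FPKM + 1, with an unadjusted p under 0.05, nominally the limits of the study. Benjamini-Hochberg adjusted p values stand beside. The authors used Partek Flow, which was not used here. Single values and ratios had two-sided exact permutation tests (numpy 2.4.6), and ranks for Spearman coefficients came from scipy 1.17.1. Groups came from the labels.

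On simulated data for the May comparison (9021 genes), calls recovered 196 of 200 genes given a log2 change of 2. At an adjusted p under 0.05, 166 were recovered. The calls also took in 40 unchanged genes. The changed genes were drawn from those of higher expression, and smaller changes, such as those of the members, were not simulated. Named genes are the members, 5 neighbours by each measure, up to 4 called regulators per list and fixed core partners. The members and lists were chosen with earlier results of these data known.

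Alternatives were the pseudocount (0.1), filters, quantile and median-of-ratios scaling, 1 fit over all 4 groups, a replicate block, the adjusted threshold, and leaving out each library or the 3 shallow ones.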

Additional observations from a re-analysis of the deposited data

Results flagged for a closer look

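Within each group the highest and lowest library were compared with their nearest neighbour for 24 sets of 6 values (levels and ratios of the members), and 2 stood apart. Chance alone sets apart about 1 in 20 such sets if the values are normally distributed. The ratios were taken here without the log2 of the ratio tests. A high ratio stands less far apart on the log2 scale, and whether the 2 would pass there was not tested. The CCNB1 to CDK1 ratio of GV May replicate 6 was 8.54, and its gap to the next library was 0.793 of the range of its group, above Dixon's critical value at 95%. The CCNB2 to CDK1 ratio of GV July replicate 2 was 5.83, with a gap of 0.836 of the range. Both libraries were shallow (relative depths 0.0565 and 0.393), and both had the lowest CDK1 of their group, 3.63 and 3.08 FPKM.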

How the results depend on the processing

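No difference of a member reversed where it had been called. CDK1 in May kept its call except under quantile normalization (-0.91, unadjusted p 0.0124, short of the fold). CDK1 in July lost it at the adjusted threshold (-1.10), under quantile normalization (-0.77, p 0.133) and under median-of-ratios scaling (-1.09, p 0.0591). CCNB1 in May passed the fold with a pseudocount of 0.1 (1.02), under quantile normalization (1.24) and without the shallow libraries (1.03). Under median-of-ratios scaling CCNB1 in May fell further short of it (0.76, limma adjusted p 0.0139). CCNB1 in July kept its call in all 9 alternatives (1.19 to 1.56), and no alternative gave a call to CCNB2 or to any member between seasons. Refits that each omitted 1 library gave -1.35 to -1.02 for CDK1 in May, 0.90 to 1.11 for CCNB1 in May (past the fold without GV replicates 2, 3, 4 or 6 or MII replicates 1 or 4), -1.35 to -0.92 for CDK1 in July (short of the fold without GV replicates 1, 3 or 5 or MII replicates 5 or 6, with p of 0.0452 or less) and 1.19 to 1.46 for CCNB1 in July.

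Log2 ratios left without the shallow libraries were 1.73 for CCNB2 to CDK1 in July, now past the threshold (adjusted p 0.0455), and 1.11 for CCNB1 to CCNB2 in July, no longer past it (0.0571). Leaving out 1 library gave 1.02 to 1.73 for the first, 1.11 to 1.62 for the second, which lost the threshold in 9 of 12 refits (adjusted p up to 0.0623), and 0.83 to 1.19 for CCNB1 to CCNB2 in May, which passed it in 2 of 12 (without GV replicate 3 or MII replicate 1). The labels do not say that replicate numbers pair the samples, and the data did not settle it: correlations of same-numbered deviations ran from -0.44 to 0.76, and 1 to 4 of 6 were over 0.1 per comparison. A library correlated best with its own number in 4 of 6 cases between the seasons in MII, and in 1 or 2 of 6 in the other 3 comparisons. Whether shared animals or similar depth lay behind these matches was not tested. With the replicate block no call of a member changed (CDK1 in July, unadjusted limma p 0.0371), and the ratio differences, 2.35, 2.67, 1.36 and 1.36, had an adjusted exact p of 0.0938, since 6 pairs cannot go under 0.03125.

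Counts of called genes moved with a pseudocount of 0.1 to 2628 from 1126 (stages, May), 2521 from 1092 (stages, July), 37 from 3 (seasons, GV), 23 from 4 (seasons, MII) and 96 from 20 (season difference in the stage change). At the adjusted threshold the last 3 were 0. Quantile normalization and median-of-ratios scaling gave 6 for the seasons in GV and 1 fit over all groups 14; median-of-ratios scaling gave 1 for the seasons in MII and 11 for the difference in change, and leaving out the shallow libraries gave 9 for the seasons in MII. Leaving out 1 library gave 1010 to 1348, 1007 to 1195, 3 to 13, 2 to 16 and 15 to 41. The causes were not tested. Relative depth sets how small a change can be seen in the 3 shallow libraries.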
